A study of Mus musculus with 5 samples.

Results

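The genes described are 10 parts of the fibroblast growth factor (FGF) and ERK signalling loop of mouse embryonic stem cells: the ligand gene Fgf4, the receptor genes Fgfr1 and Fgfr2, and 7 genes known as transcriptional targets and feedback regulators of ERK, namely Dusp4, Dusp6, Spry2, Spry4, Etv4, Etv5 and Spred1. They were taken by symbol, with FPKM summed over the RefSeq transcripts of each, and all 10 were found among 22267 genes. FPKM counts sequenced fragments after division by transcript length and by library depth. Of the 10 genes, 8 entered the comparisons across all genes. Fgfr2 had a mean of 0.505 FPKM, under the minimum mean of 1 FPKM, and Spry2 carries a hyphen in place of a value in 1 library.

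Messenger RNA of E14 embryonic stem cells, given in the labels as strain C57BL/6, was sequenced as 5 libraries, each the only one of its group. Normal cells and cells labelled as overexpressing Hexokinase 2 (Hk2) and Pyruvate Kinase M2 (Pkm2), called HP cells here as in the sample names, were each cultured with leukemia inhibitory factor (LIF), a cytokine that keeps such cells from differentiating. A further library of each cell type had 24 hours without LIF, after which LIF was added (called "after withdrawal"), and the fifth library came from HP cells kept 40 days without LIF. The labels do not say whether the HP cells are 1 clone, or whether the libraries of a cell type came from separate cultures. With a single library behind each group, a difference between 2 libraries has no replicate check.

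In this tissue FGF4 is secreted by the pluripotent cells themselves and acts through FGF receptors, the RAS switch and the kinases RAF, MEK and ERK to prepare the cells to leave naive pluripotency, whereas LIF acts through STAT3 to hold them there. Active ERK induces genes that act back on the pathway. The dual-specificity phosphatases DUSP4 and DUSP6 remove phosphate from ERK, the Sprouty and SPRED proteins damp signalling between the receptor and RAF, and ETV4 and ETV5 are ETS-family transcription factors that carry the signal to other genes. Transcripts of this group are therefore widely read as a record of ERK activity, which itself was not measured here.

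Promoter entries of 6 of the 10 genes, Fgf4, Fgfr2, Dusp6, Spry2, Etv5 and Spred1, were taken from RefSeq sequences of GRCm38.p6. The 250 bases before the transcription start are shown for the ligand Fgf4, for the phosphatase Dusp6 and for Etv5, because the last of these stood higher after the 24 hour withdrawal in both cell types while Dusp6 did not. Each stretch had 1 exact match on its chromosome and strand in mm9, the build of the deposited values. Fgf4 matched at chr7:152047041-152047290 on the plus strand, Dusp6 at chr10:98725615-98725864 on the plus strand, and 1 of the 2 Etv5 entries at chr16:22439644-22439893 on the minus strand. Capitals mark matches, on either strand, to the GC box GGGCGG, the CCAAT box CCAAT and the repeat TATATA.
Fgf4: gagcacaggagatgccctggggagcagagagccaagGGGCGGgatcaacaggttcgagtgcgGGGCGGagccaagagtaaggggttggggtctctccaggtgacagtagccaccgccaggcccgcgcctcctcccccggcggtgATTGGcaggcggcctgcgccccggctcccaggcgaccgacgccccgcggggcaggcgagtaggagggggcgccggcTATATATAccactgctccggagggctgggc
Dusp6: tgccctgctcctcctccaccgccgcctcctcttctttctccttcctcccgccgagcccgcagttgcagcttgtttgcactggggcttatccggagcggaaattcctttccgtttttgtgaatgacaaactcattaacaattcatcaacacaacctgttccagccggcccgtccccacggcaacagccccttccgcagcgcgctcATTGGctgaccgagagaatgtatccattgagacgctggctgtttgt
Etv5: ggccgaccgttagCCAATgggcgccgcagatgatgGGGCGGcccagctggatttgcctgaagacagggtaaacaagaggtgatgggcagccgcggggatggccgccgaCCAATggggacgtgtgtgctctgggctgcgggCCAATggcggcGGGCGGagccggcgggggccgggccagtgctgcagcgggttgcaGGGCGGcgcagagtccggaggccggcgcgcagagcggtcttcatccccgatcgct
The Fgf4 stretch held 2 GC boxes, 1 CCAAT box on the reverse strand and 2 overlapping matches of TATATA, which 5.25% of all 32851 promoter windows of this length contain. The Etv5 stretch held 3 CCAAT boxes and 3 GC boxes, against 33.8% and 32.7% of all windows with at least 1 of each. The other Etv5 entry, not shown, held 1 CCAAT box and no GC box. The Fgf4 and Etv5 stretches shown were each 71.2% G and C, against a median of 52.4% over all windows. Part of the Etv5 stretch lies inside the GENCODE span of the gene given below. The Dusp6 stretch held 1 CCAAT box and no GC box. The longer ETS motif CCGGAA is present in 12.0% of all windows and the STAT site TTCNNNGAA in 7.02%. Neither had a match in the 7 windows of the 6 genes, and no match says only that these letters are not in these windows. The shorter ETS core GGAA was not counted, and the Dusp6 stretch shown holds it.

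All 10 ES cell markers checked, among them Pou5f1, Nanog and Sox2, reached 1 FPKM in all 5 libraries, with summed values of 2436 to 3762 FPKM. Of the 12 fibroblast and feeder markers 4 to 7 reached 1 FPKM, with summed values of 121 to 242 FPKM. Vim (32.0 to 144 FPKM), Fn1 (35.9 to 58.7 FPKM) and Lgals1 (27.3 to 77.8 FPKM) made up most of these sums, and the collagen genes Col1a1 and Col3a1 stood at or near 0. The overexpression label was not borne out 2-fold by FPKM summed per gene, in which Pkm2 is not separated from other Pkm transcripts. Hk2 stood at 76.2 (normal) and 98.6 FPKM (HP) in the LIF cultures and, after withdrawal, at 49.7 and 59.0 FPKM. Pkm stood at 510 and 567, then 611 and 564 FPKM. In the 40 day HP library both were at their lowest, Hk2 at 29.0 FPKM, under both normal libraries, and Pkm at 495 FPKM. The labels do not say whether transcripts of the introduced copies are counted in these rows, so HP stands only for the library label. Socs3, a feedback gene of LIF signalling, stood at 65.3 (normal) and 64.8 FPKM (HP) with LIF. After withdrawal it stood at 2.25 and 0.970 FPKM, and at 1.50 FPKM at 40 days. The 24 hour libraries were thus near the 40 day library for Socs3, although the labels say that LIF was added. Whether LIF was acting in them was not tested. Depth, estimated from the value that 1 fragment takes in genes of known length, was about 34000000 to 40000000 fragments per library.

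Fgf4, the ligand, was among the most abundant of these transcripts. With LIF it stood at 76.8 FPKM (normal) and 69.7 FPKM (HP), then at 76.8 and 84.9 FPKM after withdrawal in the same order, and at 30.3 FPKM in HP cells at 40 days. The 40 day library was the lowest, and the other 4 lay within 1.22-fold of each other. Its mm9 location is chromosome 7, plus strand, 152047291 to 152051148.

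Fgfr1, the receptor that carries most of the response to FGF4 in these cells, stood at 7.43 and 5.27 FPKM in the normal libraries with LIF and after withdrawal. In HP cells it stood at 13.3 FPKM with LIF, 16.1 FPKM after withdrawal and 12.4 FPKM at 40 days. Each HP library was above each normal one, an order whose share among all genes was not counted. Fgfr1 has 3 transcripts in the table, and the sum hides a shift among them. NM_010206 had a level of 7.43 FPKM in normal cells with LIF, was listed at 0 in normal cells after withdrawal, and stood at 7.98, 11.7 and 7.78 FPKM in the HP libraries with LIF, after withdrawal and at 40 days. NM_001079908 was listed at 0 in normal cells with LIF and stood at 5.27 FPKM after withdrawal, and at 5.35, 4.40 and 4.64 FPKM in the HP libraries in the same order. Each normal library thus has its whole Fgfr1 value on 1 transcript, a different one in each, while the 3 HP libraries have both. A transcript at 0 here may be one that was not estimated. In each normal library the transcript that has a value is close to its level in HP cells with LIF. The third transcript, NM_001079909, was listed at 0 in all 5 libraries. Fgfr1 occupies 26624126 to 26686186 of chromosome 8, plus strand, in mm9, and over 7423 bases it overlaps Gm16159, a long noncoding RNA gene on the other strand, whose reads a kit that does not mark strand cannot separate.

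**Figure D1:**
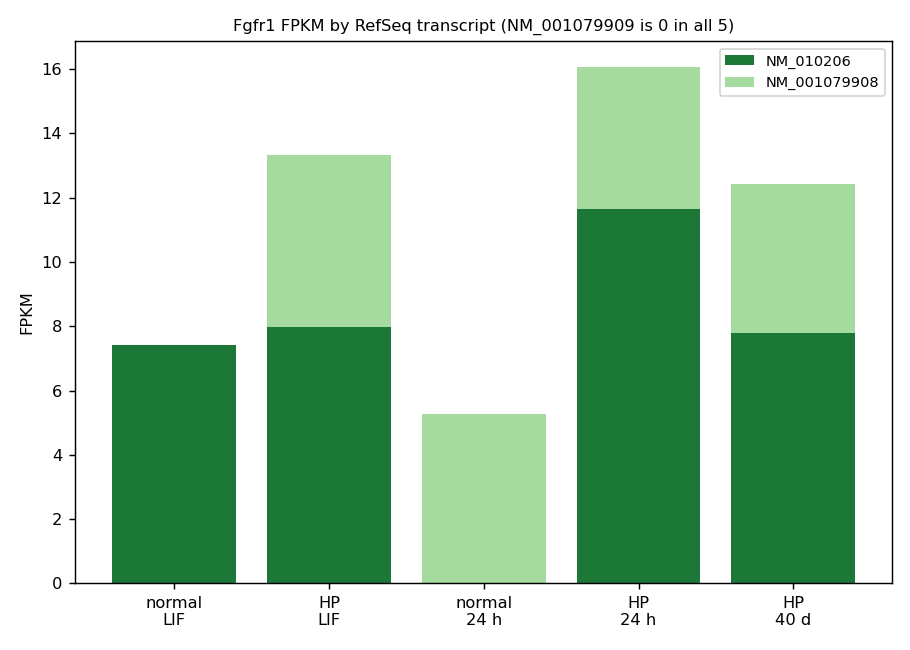
FPKM of Fgfr1 (y axis) in each library (x axis; HP, cells labelled as overexpressing Hk2 and Pkm2), stacked by RefSeq transcript. The normal libraries hold only NM_010206 (7.43 FPKM, LIF) or only NM_001079908 (5.27 FPKM, 24 h), while the HP libraries hold both.

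Fgfr2, the receptor better known from primitive endoderm and trophoblast, had the lowest level of the 10 genes in each library with all 10 values. With LIF its level was 0.884 FPKM (normal) and 0.204 FPKM (HP). It stood at 0.803 and 0.635 FPKM after withdrawal, and was listed at 0 at 40 days. These values correspond to about 140, 36, 130 and 97 fragments, from the longest annotated coding transcript. Both normal libraries were above all HP libraries, at values under the filter, and the share of all genes in this order was not counted. One of its 2 transcripts, NM_201601, was listed at 0 throughout.

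**Figure D2:**
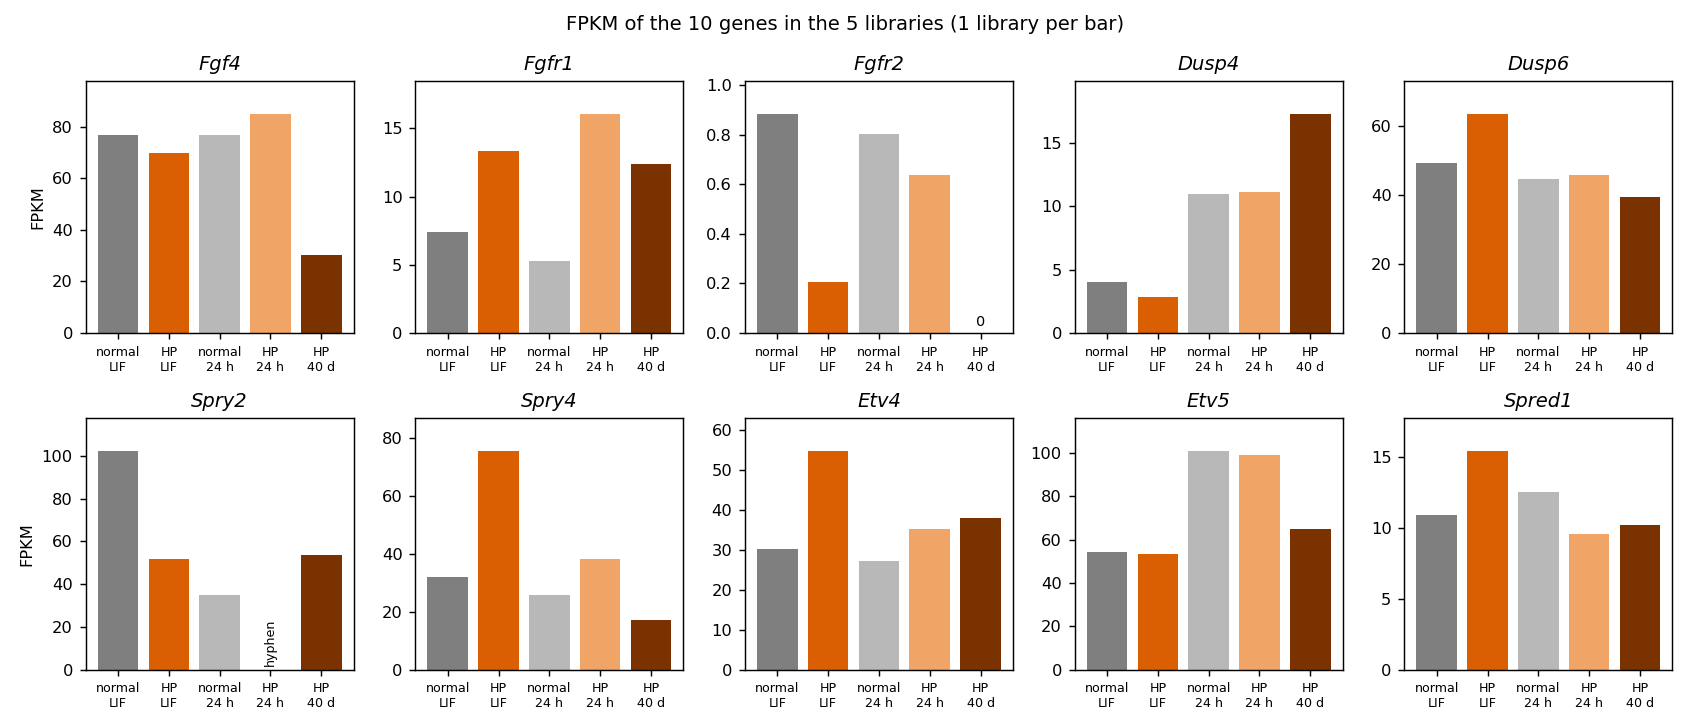
FPKM of each of the 10 genes (y axis, own scale per panel, from 0) in the 5 libraries (x axis; HP, cells labelled as overexpressing Hk2 and Pkm2), 1 library per bar. Dusp4 and Etv5 are higher in both 24 h libraries than in both LIF libraries, while Fgf4 and Spry4 are lowest at 40 days. The share of all genes in these orders was not counted. Spry2 has a hyphen in HP cells at 24 h.

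The phosphatase gene Dusp4, whose product is held in the nucleus, had levels of 4.06 FPKM (normal) and 2.86 FPKM (HP) with LIF. After withdrawal it stood at 10.9 and 11.1 FPKM, and at 40 days in HP cells at 17.3 FPKM. The 3 libraries that had gone without LIF were above the 2 kept with LIF. How many of all genes are ordered this way was not counted, so the order only describes these values. Dusp6, whose product acts on ERK in the cytoplasm, stood at 49.2 and 63.4 FPKM with LIF in normal and HP cells, at 44.6 and 45.8 FPKM after withdrawal and at 39.2 FPKM at 40 days. The Dusp6 libraries lie in the opposite order, with both LIF libraries on top, but within 1.62-fold in all, again with no count over all genes. Both are on the plus strand of mm9, Dusp4 at 35870351 to 35882948 of chromosome 8 and Dusp6 at 98725865 to 98730122 of chromosome 10.

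Among the inhibitors, Spry2 had levels of 102 FPKM in normal cells with LIF, 51.7 FPKM in HP cells with LIF, 34.7 FPKM in normal cells after withdrawal and 53.7 FPKM in HP cells at 40 days. The HP library after withdrawal has the hyphen, which the labels do not explain, so withdrawal can be compared for Spry2 in normal cells alone. Spry2 is at 106291166 to 106296036 of chromosome 14, minus strand, and Spred1 at 116947110 to 117008015 of chromosome 2, plus strand, in mm9. Spry4 stood at 32.2 and 75.8 FPKM with LIF in normal and HP cells, at 25.8 and 38.3 FPKM after withdrawal and at 17.2 FPKM at 40 days. With LIF the Sprouty genes were thus in opposite order, Spry2 higher in normal cells and Spry4 in HP cells. Spred1, which keeps RAS signalling in check at the membrane, stood at 10.9 and 15.5 FPKM with LIF, 12.6 and 9.58 FPKM after withdrawal and at 10.2 FPKM at 40 days, a range of 1.61-fold.

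The ETS factors also parted. Etv4 stood at 30.1 and 54.8 FPKM with LIF in normal and HP cells, at 27.2 and 35.1 FPKM after withdrawal and at 37.9 FPKM at 40 days, with HP cells above normal cells in both cultures. Etv5 stood at 54.5 and 53.2 FPKM with LIF, at 101 and 99.2 FPKM after withdrawal and at 65.0 FPKM at 40 days. The Etv5 values of the cell types almost coincide in each culture, and the 24 hour libraries are on top. Both are on the minus strand of mm9, Etv4 at 101631056 to 101646685 of chromosome 11 and Etv5 at 22381382 to 22439792 of chromosome 16.

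Ordered by FPKM, which is per length, normal cells with LIF ran from Spry2 and Fgf4 through Etv5, Dusp6, Spry4, Etv4, Spred1, Fgfr1 and Dusp4 to Fgfr2. Spry2 was above 94.6% of the 9590 genes that passed the filter in that library, and Dusp4 above 29.5%. After withdrawal Etv5 was the highest in both cell types, and it was again the highest at 40 days. With 1 library a group, it cannot be said whether neighbours in these orders differ.

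On the 24 hour withdrawal, Dusp4 was the gene of the 8 that was at least 2-fold different in normal cells, with a log2 ratio of 1.24 on FPKM + 1, and again in HP cells, with 1.65. With a pseudocount of 4 FPKM the ratio in normal cells was 0.89, under 2-fold. This is 1 of 8 genes higher and 0 lower in each cell type, against 4.62% of all 9590 genes higher and 5.51% lower in normal cells, and 5.79% higher and 6.07% lower in HP cells. A library pair of normal cells shares no library with the pair of HP cells, and 1.30% of all genes were at least 2-fold higher in both. Etv5 had ratios of 0.88 and 0.89, alike in both cell types and under 2-fold. Dusp6 (-0.14 and -0.46), Spry4 (-0.31 and -0.97) and Etv4 (-0.14 and -0.63) were lower in both, while Spred1 (0.19 and -0.64) and Fgfr1 (-0.43 and 0.25) differed in sign. With the highest transcript only, Fgfr1 had -3.08 in normal cells, where that transcript is listed at 0 after withdrawal. Fgf4 had 0.0012 and 0.28. The median of the 8 was -0.069 in normal and -0.10 in HP cells, against -0.0055 and 0.0042 over all genes, with 4 genes above 0 and 4 below in each. Spry2, not counted among the 8, had -1.53 in normal cells. Whether the response differed between cell types was not tested, since 4 libraries leave no spread to set an interaction against.

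**Figure D3:**
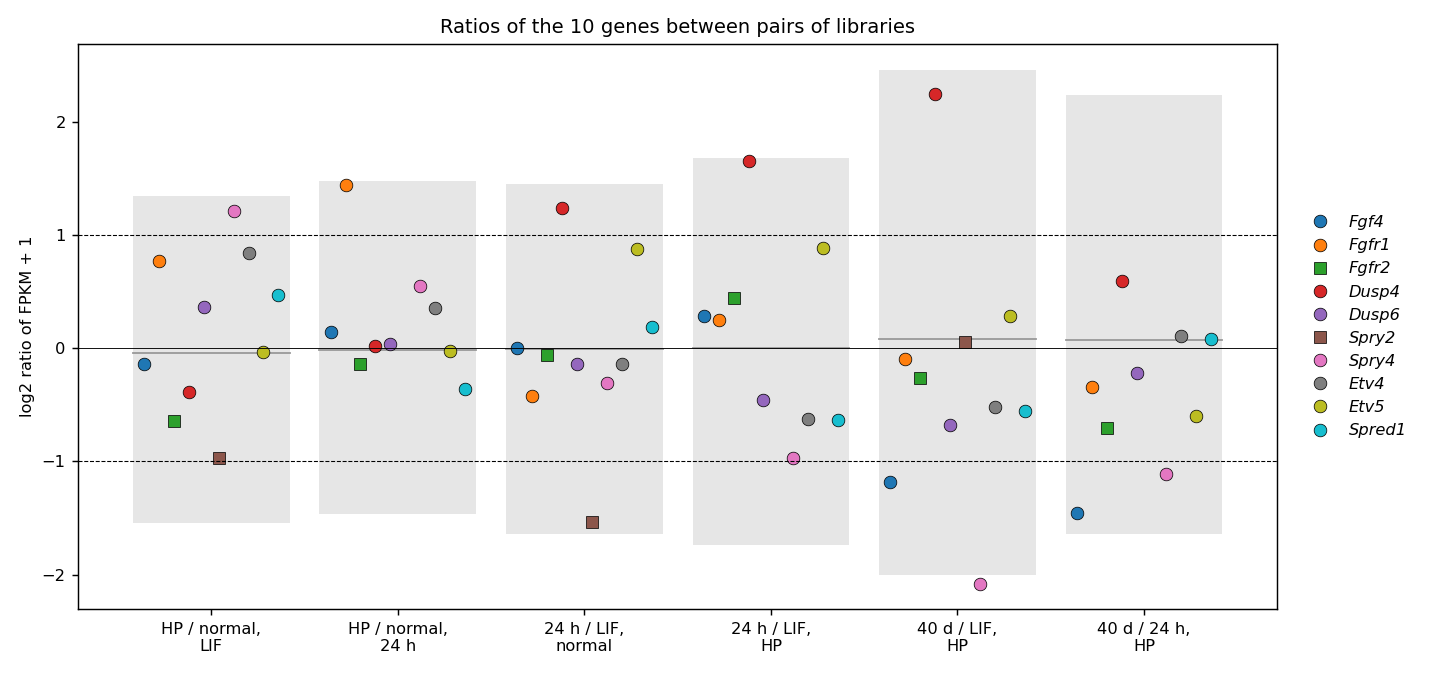
Log2 ratio of FPKM + 1 (y axis) of the 10 genes for the 6 pairs of libraries (x axis; HP, cells labelled as overexpressing Hk2 and Pkm2). Grey bars hold the central 95% of the 9590 genes past the filter, the grey line is their median and dashed lines mark 2-fold; squares are Fgfr2 and Spry2, which did not pass. Dusp4 is above 2-fold in both withdrawal pairs, at 1.24 and 1.65.

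Over both cell types, limma (additive in culture and cell type, 4 libraries, Benjamini-Hochberg over 9590 genes) gave Dusp4 a change of 1.45 ± 0.19 (SE) with an adjusted p of 0.345, and Etv5 0.88 ± 0.068 with an adjusted p of 0.324. Spry4 had -0.64 ± 0.22 with an adjusted p of 0.451, and the other 5 genes had changes between -0.38 and 0.14. In limma 0 of the 8 genes passed an adjusted p of 0.05 for culture, as did 0.0% of all genes, while 1154 genes, 12.0% of all, had an unadjusted p under 0.05, Dusp4 (0.00924) and Etv5 (0.00257) among them. With 1 residual degree of freedom the fit has little power, and its p-values rest on how alike the 2 cell types were.

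Between the cell types with LIF, Spry4 was at least 2-fold higher in HP cells, at a log2 ratio of 1.21, which makes 1 of 8 genes higher and 0 lower, against 4.11% and 5.32% of all genes. Etv4 (0.84), Fgfr1 (0.77), Spred1 (0.47) and Dusp6 (0.36) were also above 0, and Dusp4 (-0.39), Fgf4 (-0.14) and Etv5 (-0.035) below. The median of the 8 was 0.41, against -0.044 over all genes. The Fgfr1 ratio falls to 0.091 with the highest transcript only, since NM_001079908 is listed at 0 in the normal library. Median scaling and quantile normalization each left 6 genes above 0 in place of 5. After withdrawal Fgfr1 was the 1 gene of 8 at least 2-fold higher, at 1.44, with 0 lower, against 4.19% and 5.18% of all genes. That value rests on NM_010206, listed at 0 in the normal library, whereas NM_001079908 stood at 5.27 and 4.40 FPKM in normal and HP cells. The ratio of Spry4 was 0.55 and of Etv4 0.36, and Dusp4 (0.020), Dusp6 (0.039) and Etv5 (-0.028) were near 0. The median after withdrawal was 0.091, against -0.021 over all genes.

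Over both cultures, limma gave Fgfr1 a cell type difference of 1.10 ± 0.25 (SE, HP minus normal, adjusted p of 0.516), Spry4 0.88 ± 0.22 (adjusted p of 0.520) and Etv4 0.60 ± 0.17 (adjusted p of 0.520). The Fgfr1 value rests on sums in which each normal library has a different transcript at 0: with the highest transcript only, its ratios are 0.091 with LIF and 3.66 after withdrawal, in place of 0.77 and 1.44. The other 5 genes lay between -0.19 and 0.20. In limma 0 of the 8 genes passed an adjusted p of 0.05, as did 0.0% of all genes. An unadjusted p under 0.05 held for Fgfr1 (0.0312) and Spry4 (0.0410) and for 918 genes, 9.57% of all.

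After 40 days without LIF, HP cells had Fgf4 and Spry4 at least 2-fold lower than with LIF, at log2 ratios of -1.18 and -2.08, and Dusp4 higher at 2.25. This is 1 of 8 genes higher, against 14.0% of all genes, and 2 of 8 lower, against 8.31%. Dusp6 (-0.68), Spred1 (-0.56), Etv4 (-0.52) and Fgfr1 (-0.095) were also lower and Etv5 (0.28) higher, so that the median was -0.54 against 0.076 over all genes. Against the 24 hour HP library, Fgf4 (-1.46) and Spry4 (-1.11) were again at least 2-fold lower, 2 of 8 genes against 5.78% of all genes, and 0 of 8 were higher, against 12.1%. Etv5 had -0.60, Fgfr1 -0.35, Dusp6 -0.22, Spred1 0.082, Etv4 0.11 and Dusp4 0.60 in that pair. These comparisons share the 40 day library and so are not independent of each other, and the first shares its LIF library with the withdrawal pair of HP cells. The 40 day library stayed out of the limma fit, and no test was made with it. With a pseudocount of 4 FPKM the ratio of Spry4 to the 24 hour library was -0.998, under 2-fold.

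Most endoderm markers were higher in the 40 day library than in HP cells with LIF, but not all. Of 14 primitive and visceral endoderm markers, 9 reached 1 FPKM there, against 4 in HP cells with LIF and 2 after withdrawal, and their summed level was 241 FPKM, against 103 and 9.61 FPKM. Gata4, a transcription factor of that lineage, stood at 25.6 FPKM against 1.19 and 1.99 FPKM, and Cubn, an endocytic receptor of visceral endoderm, at 40.1 FPKM against 0.0896 FPKM and a listed 0, while Sox17, Afp and Sparc were listed at 0. Of the trophoblast markers 4 of 9 reached 1 FPKM, against 4 and 3. Their sum was 80.8 FPKM against 15.2 and 12.1 FPKM, most of it at 40 days from Krt18 and Krt8. Of the mesoderm markers 1 of 8 reached 1 FPKM, against 0 and 1. Neural markers reached 1 FPKM in 4 of 8 cases against 3 and 3, with a sum of 26.9 FPKM against 53.6 and 7.07 FPKM. Fibroblast markers did so in 7 of 12 against 5 and 5, with a sum of 131 FPKM against 242 and 121 FPKM. The sum of the ES cell markers was 2436 FPKM against 3633 and 3213 FPKM. This sum hides larger differences between 40 days and LIF in HP cells. Nanog stood at 29.6 against 183 FPKM, Zfp42 at 40.9 against 278 FPKM and Sox2 at 93.0 against 236 FPKM. Lin28a (208 against 191 FPKM) and Sall4 (45.6 against 36.8 FPKM) were higher at 40 days. In RNA from a whole culture, fewer cells of a type and less RNA per cell cannot be told apart, and the part of other cell types in the values of the 10 genes was not tested.

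The rest of the pathway was read from 8 lists by role, of 107 genes in all. Past the filter were 65 genes other than the 10. On withdrawal in normal cells, 5 of these passed 2-fold upward and 5 downward, with a median of 0.17. In HP cells 4 passed upward and 5 downward, with a median of 0. For 3 of the 5 higher genes in normal cells, 1 of the libraries compared holds a 0. Between cell types 3 were higher and 3 lower with LIF, and 2 higher and 6 lower after withdrawal, with medians of -0.049 and -0.072. As shares of the 65 genes these counts run from 3.08% to 9.23%, against 4.11% to 6.07% of all genes in the same pairs.

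Other than Dusp4, 5 pathway genes were at least 2-fold different in the same direction in both cell types on withdrawal. Fgf15, a ligand gene, stood at 3.36 and 11.7 FPKM in normal cells and at 4.23 and 30.2 FPKM in HP cells, with LIF and after withdrawal. Erf, an ETS repressor that ERK expels from the nucleus, stood at 57.4 and 8.22 FPKM in normal and 23.7 and 7.70 FPKM in HP cells. The immediate early genes Junb (64.0 and 13.3 FPKM, then 33.6 and 5.76 FPKM), Egr1 (68.3 and 25.4 FPKM, then 52.9 and 24.0 FPKM) and Fos (4.82 and 0.883 FPKM, then 2.56 and 0.418 FPKM) were lower after withdrawal in both. These lower values stand beside the higher Dusp4 and Etv5, so transcripts listed as ERK responses stood both higher and lower in the same libraries. In limma Junb changed by -2.27 ± 0.10 (SE, adjusted p of 0.324), Egr1 by -1.25 ± 0.12 (adjusted p of 0.324) and Erf by -2.08 ± 0.38 (adjusted p of 0.345), so none passed. The share of all genes was 2.03% for at least 2-fold lower in both cell types.

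**Figure D4:**
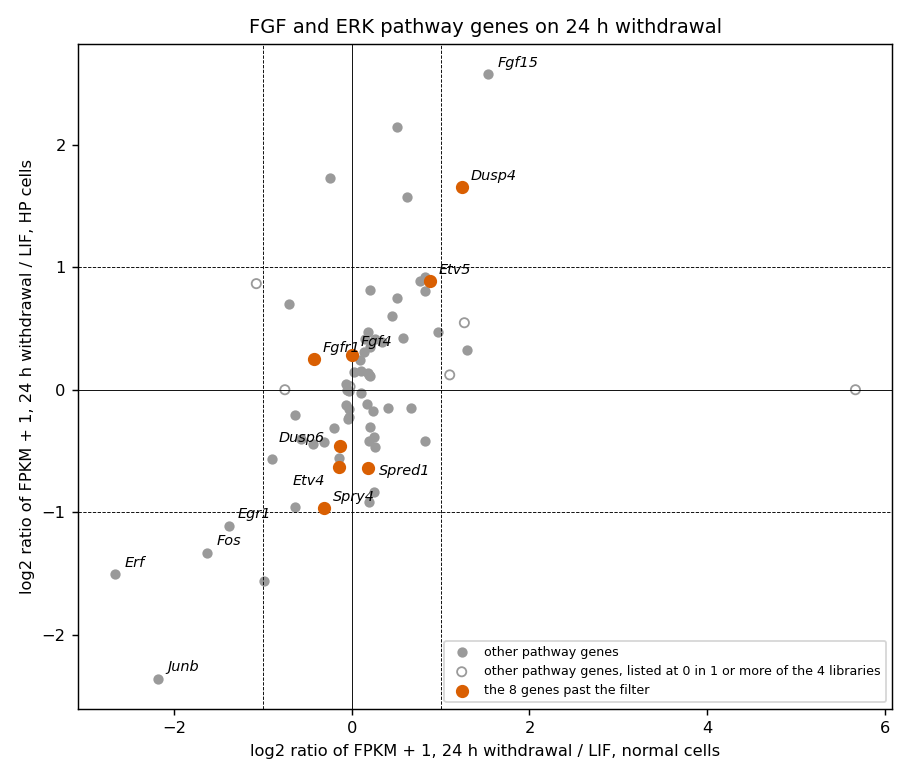
Log2 ratio of FPKM + 1 on 24 h withdrawal in normal cells (x axis) against HP cells, labelled as overexpressing Hk2 and Pkm2 (y axis), for the 73 FGF and ERK pathway genes past the filter, 8 of them the genes described here (orange). Dashed lines mark 2-fold; Dusp4 and Fgf15 lie above it on both axes, Erf, Egr1, Fos and Junb below it.

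Within the sets to which the 10 genes belong, Dusp4 was first compared with the other phosphatases. Of the 7 other phosphatase genes past the filter, 0 were 2-fold different in either cell type on withdrawal, with medians of 0.21 and 0.11, while at 40 days 4 were at least 2-fold higher than with LIF and 0 lower, with a median of 1.05, against 14.0% of all genes higher and 8.31% lower in that pair. Dusp9, an ERK phosphatase of the cytoplasm, stood at 17.8 FPKM with LIF, 30.4 FPKM after withdrawal and 90.9 FPKM at 40 days in HP cells, and Dusp16, which acts mainly on JNK and p38, at 2.09, 1.79 and 13.1 FPKM. At 40 days Dusp9 was thus above Dusp6, at 39.2 FPKM, in contrast to the other 4 libraries.

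**Figure D5:**
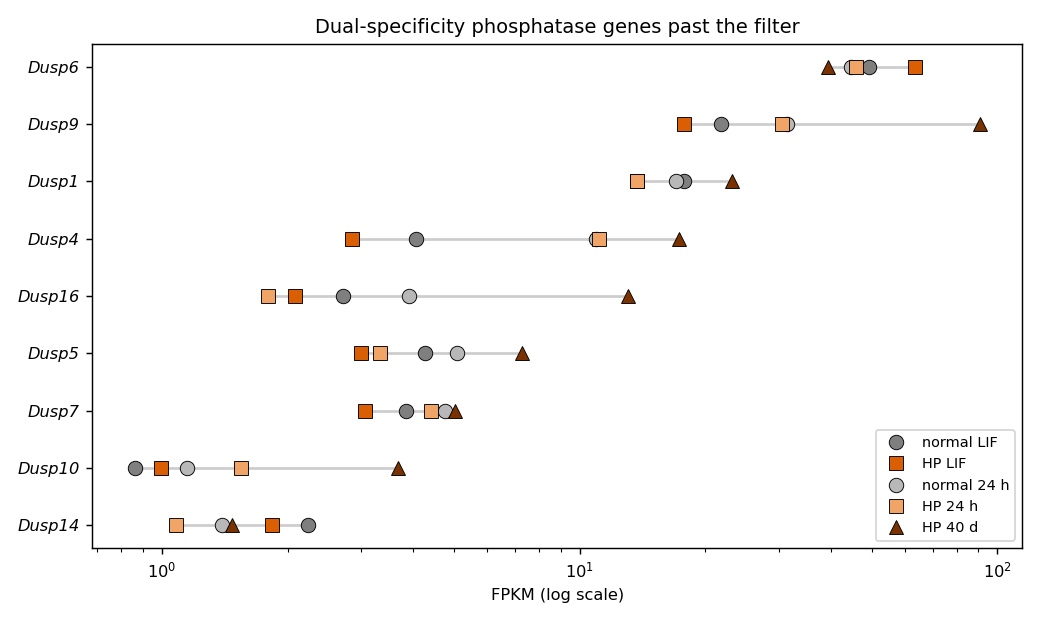
FPKM (x axis, log scale) of the 9 dual-specificity phosphatase genes past the filter (y axis) in each of the 5 libraries (HP, cells labelled as overexpressing Hk2 and Pkm2); grey lines join the lowest and highest library. The 40 day library (triangles) is the highest for 7 of the 9, and the lowest for Dusp6 at 39.2 FPKM. The share of all genes that are highest at 40 days was not counted.

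Of the 6 other Sprouty, Spred and Sef genes past the filter, 2 were at least 2-fold higher at 40 days than with LIF and 0 lower, against 14.0% and 8.31% of all genes. Errfi1, an inhibitor of the EGF receptor, stood at 3.52 and 12.9 FPKM and Spred3 at 1.54 and 4.51 FPKM, while Spry4 was lower. Spry1, a further Sprouty gene, stood at 4.01 and 1.54 FPKM with LIF in normal and HP cells and at 3.23 and 7.40 FPKM after withdrawal. Among the 4 other ligand genes past the filter, Fgf5, a ligand of the primed epiblast, stood at 0.0329, 3.56 and 7.46 FPKM in HP cells with LIF, after withdrawal and at 40 days, beside Fgf4 at 69.7, 84.9 and 30.3 FPKM, and Fgf17 stood at 14.8, 4.35 and 2.15 FPKM. The receptor group had 3 of 9 other genes at least 2-fold higher at 40 days than with LIF and 0 lower, beside the same 14.0% and 8.31% of all genes. Klb, a coreceptor for endocrine FGFs, stood at 5.13 FPKM against 0.0274 FPKM, Flrt3, an FGF receptor partner, at 13.8 against 1.57 FPKM, and Fgfrl1, a receptor without a kinase domain, at 4.64 against 1.50 FPKM. Klb passed the filter only through its 40 day value, with 0.0455 FPKM or less in the other libraries. It could thus be counted here only as higher. Fgfr3 and Fgfr4, under the filter, stood at 3.12 and 3.95 FPKM at 40 days, against 0.462 and 0.119 FPKM with LIF. Fgfr1 stayed the highest of the 4 receptor kinases in all 5 libraries, at 12.4 FPKM in the last.

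Among the kinases of the pathway, Mapk3 (ERK1) stood between 47.9 and 73.4 FPKM in the 5 libraries. Map2k1 (MEK1) stood at 44.2 to 50.6 FPKM in the first 4 and 26.6 FPKM at 40 days. Braf, which was at least 2-fold lower in HP than in normal cells in both cultures (1.13% of all genes were), is named only as listed at 0 in both HP libraries with LIF and at 24 hours, and Gab1 as listed at 0 in 3 of the 5. Also among the highest or lowest of the pathway lists at 40 days were Ccnd1, the cyclin D1 gene (45.7, 61.3 and 20.3 FPKM in HP cells with LIF, after withdrawal and at 40 days), Myc (36.1, 48.8 and 24.3 FPKM), Elk3 (2.95, 1.03 and 0.840 FPKM), Rps6ka1 (33.5, 41.7 and 19.3 FPKM), Map2k2 (11.5, 21.1 and 9.64 FPKM) and Phldb2 (0.467, 0.926 and 5.52 FPKM). Over the 65 genes other than the 10, 20 were at least 2-fold higher at 40 days than with LIF and 4 lower, with a median of 0.35. These are 30.8% and 6.15% of the 65, against 14.0% and 8.31% of all genes. Of the 20 higher genes 3 are listed at 0 in a library compared, and the median is 0.19 without such genes. Klb, Phldb2 and Fgf13, also among the 20, passed the filter only through their 40 day values of 5.13, 5.52 and 2.94 FPKM. The filter thus favoured counting these as higher.

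The genes whose profiles over the 5 libraries were most like each of the 8 were found among the 8841 genes above 0 throughout, by the Euclidean distance between log2(FPKM + 1) profiles centred on their means, as a description with 5 points that share library and depth. Fgf4 was nearest to Sertad3, Mat2b and Steap2, at distances of 0.093 to 0.16. Dusp4 was nearest to Pls3, Fbxw17 and Gramd3 (0.22 to 0.26), and Etv5 to Hacl1, Schip1 and Eef1b2 (0.16 to 0.24). Spry4 was nearest to Sema5b, Ccdc3 and Slc9b2 (0.33 to 0.35), Etv4 to Cyb5r1, Fam234b and Ift140 (0.14 to 0.18), and Dusp6 to Zfp976, Arfgap3 and Herc4 (0.10 to 0.11). Spred1 was nearest to Zfp661, Rgmb and Prkci (0.070 to 0.14), and Fgfr1 to Cinp, Acss1 and Mdn1 (0.29 to 0.35). Within the 8, the closest pair was Dusp6 and Spred1 at 0.32, while Dusp4 was at 1.48 from its nearest, Etv5. None of the 8 had another of them among its nearest 3. With so few of them among the 8841 genes searched, that does not show whether the 8 vary together.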

How the data were processed

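The deposited table holds FPKM per RefSeq transcript for 5 libraries, made by the authors, with TopHat2 2.0.7, Cufflinks 2.0.2 and mm9 named in the submitters' processing notes; library kits were TruSeq RNA v2, per the labels' protocols. The labels state no further settings. Gene symbols came from the RefSeq annotation of GRCm38.p6, in which 28066 of the 28698 transcripts were found, and FPKM was summed per gene, a hyphen in any transcript leaving the gene out (337 of 22267 genes). Genes with a mean of at least 1 FPKM (9590) were kept, and ratios were taken on log2(FPKM + 1), which understates the change of low genes. Coordinates come from GENCODE vM1 on mm9. FPKM are not counts, so no count model was run. Limma 3.58.1 (R 4.3.3, eBayes with trend) was fitted to 4 libraries. It was also run on simulated data that were additive, with spread drawn from the fit itself. That run had no interaction of culture and cell type, so it does not check the p-values given here. A p-value measures only the spread between these libraries, which may be technical. Of the kept genes, 749 are listed at 0 somewhere.

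The 10 genes, the pathway lists by role and the 6 marker lists were chosen with earlier results of these data known. The genes named beyond the 10 were set by rule: pathway genes at least 2-fold different the same way in both cell types or both cultures, the 6 highest and 6 lowest ratios of the lists in each comparison with the 40 day library, and the 3 nearest profiles per gene. Socs3, further genes of the lists, such as Mapk3, Map2k1, Spry1 and Fgfr3, and the ranges of marker genes were picked after their values were seen. Some genes of the lists are not reported here by name.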

Additional observations from a re-analysis of the deposited data

Results flagged for a closer look

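Fgfr1 and Spred1 had ratios of opposite sign in the 2 cell types on 24 hour withdrawal: Fgfr1 stood at -0.43 in normal and 0.25 in HP cells, and Spred1 at 0.19 and -0.64 (log2 of FPKM + 1). Between cell types, HP over normal, 3 genes had opposite signs with LIF and after withdrawal: Fgf4 (-0.14 and 0.14), Dusp4 (-0.39 and 0.020) and Spred1 (0.47 and -0.36). Each rests on 1 library per side, and the difference between the 2 ratios was not tested.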

How the results depend on the processing

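Counts of the genes at least 2-fold different kept their value for 4 of the 6 library pairs under the 7 alternatives. In normal cells on withdrawal the count of 1 became 0 with a pseudocount of 4 FPKM, where Dusp4 had a ratio of 0.89, and 2 with the highest transcript only, where Fgfr1 had -3.08. Between 40 days and 24 hours the count of 2 became 1 with a pseudocount of 4 FPKM, where Spry4 had -0.998. The other alternatives were a pseudocount of 0.1 FPKM, no filter or a minimum of 5 FPKM, median scaling and quantile normalization. Of the 336 ratios recomputed, for the 8 genes past the filter, 333 stayed on their side of 2-fold. In limma 0 genes of the 8 passed for culture or cell type under all 5 alternatives, with adjusted p between 0.185 and 1 for culture and between 0.374 and 1 for cell type. Leaving out 1 of the 4 libraries leaves no residual degree of freedom, so this was not run. The additive limma fit compares the cultures within each cell type. No other paired analysis was possible, because each group has 1 library and the labels give no replicate numbers. FPKM carries no exact counts, so depth limits Fgfr2 most.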
